A study of Mus musculus with 15 samples.

Results

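The genes described here are 10 markers and factors of blood vessels: the endothelial markers Pecam1, Cdh5, Kdr, Flt1, Tek, Vwf and Eng, and the angiogenic factors Vegfa, Vegfc and Angpt2. They were chosen by gene name and make up 10 of the 55359 genes of the expression matrix. RNA from 15 mouse samples was sequenced after poly-A selection, in 5 groups of 3. 46LCNEC_cell is an adherent line from a large cell neuroendocrine carcinoma (LCNEC) of a CMV-QKO mouse, and 57SCLC_cell is a line from a small cell lung carcinoma (SCLC) of a K5-QKO mouse that grows as floating aggregates. The alleles of QKO mice include floxed Rb1 and Trp53 and a null Rbl1, and the tumors arose after Cre was delivered to the airways by an adenovirus, from the CMV promoter (many lung epithelial cell types) or the keratin K5 promoter (basal cells). 46LCNEC_allo (tumors 312, 319 and 321) and 57SCLC_allo (tumors 275, 316 and 317) are tumors formed by these lines under the skin of immunocompetent QKO hosts after injection with Matrigel. Lung is normal lung (CT3, CT4 and CT5) of littermates of the hosts. Hosts and littermates therefore share the floxed alleles and the null Rbl1 without Cre, the allografts contain host cells next to tumor cells, and each tumor type is represented by a single line. The cell samples were 3 dishes or flasks of 1 line, so their p-values measure the spread between cultures of that line.

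Blood vessels are lined by endothelial cells, which are joined by VE-cadherin (Cdh5) and CD31 (Pecam1) and respond to ligands secreted by other cells. VEGF-A (Vegfa) acts on the receptor tyrosine kinases encoded by Kdr and Flt1, VEGF-C (Vegfc) acts mainly on the receptor of lymphatic vessels encoded by Flt4, and the angiopoietins act on the receptor encoded by Tek. Adult lung is among the tissues richest in capillary endothelium, and solid tumors are vascularized by the host.

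Values are normalized counts, that is, reads per gene divided by the size factor of each sample, and fold changes are on the scale of log2(normalized count + 1). A gene was called when the adjusted p of limma was at most 0.01 and the log2 fold change at least 1 in size. The samples held between 9480244 and 44876572 counted reads, the fewest in tumor 275, and 1 read was worth between 0.521 and 2.39 normalized counts. Replicates of each group differed by more than counting noise, with a chi-square per degree of freedom between 2.80 and 144. Flask C of 57SCLC_cell and tumor 319 stood apart from their replicates in several genes given below. Alveolar markers such as Sftpc (58062 to 85865 normalized counts in Lung and at most 22.6 in any other sample) were in place for the tissue label. The neuroendocrine markers Insm1 and Chga lay between 8951 and 39944 in the 6 samples of 57SCLC and at most at 18.5 in the 6 samples of 46LCNEC. RNA of both markers was thus low in the LCNEC line, with some samples above the floor of 3 reads. The authors report positive staining for chromogranin A (Chga) in tumors of this line, and RNA counts do not measure protein. Reads of Rb1, Trp53 and Rbl1 were counted in every sample, and counts over whole genes do not check the deletion of single exons.

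Pecam1, Cdh5 and Eng, the membrane markers of the endothelium, followed a common order, with Lung above 46LCNEC_allo, 46LCNEC_allo above 57SCLC_allo, and both cultures near the lower end. Cdh5 (chromosome 8, 104828231 to 104871143, GRCm39) was the most restricted of them. It stood at 29535, 24545 and 26209.9 normalized counts in Lung, at 3735, 2143 and 3153 in the 46LCNEC tumors 312, 319 and 321, and at 1204, 927 and 1197 in the 57SCLC tumors 275, 316 and 317. In culture, 5 reads were counted over the 3 dishes of 46LCNEC_cell and 6 over the 3 flasks of 57SCLC_cell, at most 3 per sample, the floor used for detection. The allografts were therefore 1933-fold above the cells for 46LCNEC (counting interval at 95% 828 to 5956) and 995-fold above them for 57SCLC (456 to 2715), and both differences were called (adjusted p = 6.13e-06 and 2.77e-07). No value of one group reached into another among Lung, 46LCNEC_allo and 57SCLC_allo.

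Pecam1 (chromosome 11, 106543689 to 106641454), an adhesion molecule that platelets and some leukocytes also carry, was at 28620.2, 26063 and 27973 normalized counts in Lung. The 46LCNEC tumors held 2882, 1636 and 2652 and the 57SCLC tumors 1508, 1011 and 1346. Unlike Cdh5, Pecam1 kept a low level in culture, at 51.6, 66.2 and 46.1 in 46LCNEC_cell and 35.5, 35.0 and 42.7 in 57SCLC_cell. It rose from cells to allografts by 5.40 ± 0.25 (SE) on the log2 scale in 46LCNEC and by 5.04 ± 0.18 in 57SCLC. Eng (chromosome 2, 32535543 to 32574661), endoglin, a co-receptor for TGF-beta ligands, was at 21738, 19638 and 18871 in Lung, 1596, 928 and 1919 in the 46LCNEC tumors and 924, 544 and 883 in the 57SCLC tumors. The cultures differed here: Eng was at 159, 158 and 165 in 46LCNEC_cell and at 20.2, 11.5 and 22.4 in 57SCLC_cell, a called difference of -3.14 ± 0.26 (57SCLC minus 46LCNEC). Of the exon bases of Eng, 26.2% lie inside the span of another annotated gene, against 4.57% for Cdh5 and none for Pecam1, and whether reads of neighbors entered its counts was not tested.

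**Figure D1:**
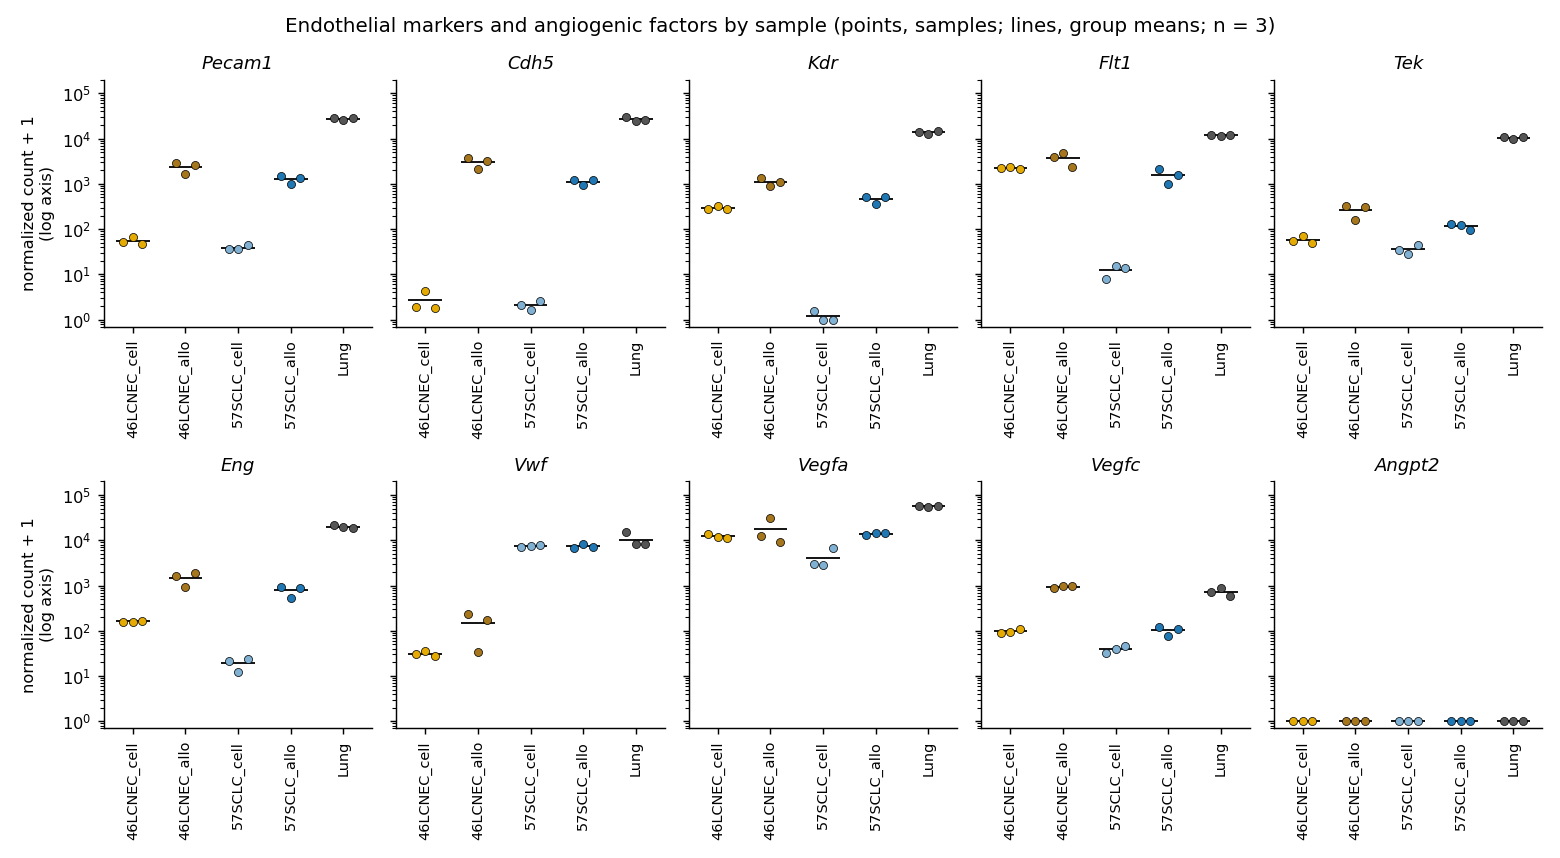
Normalized count + 1 (log axis) of the 10 genes in each of the 15 samples, with points for samples and lines for group means (n = 3). Lung is highest for 8 of the 10 genes in the group means, Vegfc is highest in 46LCNEC_allo, Vwf is as high in 57SCLC_cell (7072 to 7724) as in the 57SCLC tumors, and Angpt2 is at 0 in every sample.

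The receptor genes separated the lines in culture. Kdr (chromosome 5, 76093487 to 76139884), the main signaling receptor for VEGF-A, was at 281, 316 and 274 normalized counts in 46LCNEC_cell, whereas a single read was counted over the 3 flasks of 57SCLC_cell. It was at 1376, 881 and 1095 in the 46LCNEC tumors, 512, 355 and 524 in the 57SCLC tumors and 14069, 12963 and 15090.3 in Lung. From cells to allografts Kdr rose by 1.92 ± 0.18 in 46LCNEC, with the 3 tumors above the 3 dishes, and it rose in 57SCLC as well. There the ratio of 2501 rests on the single read and its counting interval runs from 448 to 98890. Flt1 (chromosome 5, 147498414 to 147662826), a high-affinity VEGF receptor that also limits signaling as a soluble form, was at 2225, 2325 and 2096 in 46LCNEC_cell and at 7.09, 14.5 and 13 in 57SCLC_cell, a difference of -7.52 ± 0.25 (adjusted p = 6.04e-08). In the 46LCNEC tumors it was at 3973, 4881 and 2313, so tumor 321 lay within the range of the dishes, and the difference of 0.68 ± 0.25 from the cells was not called (adjusted p = 0.0561). In the 57SCLC tumors Flt1 was at 2162, 1005 and 1576, a rise of 6.97 ± 0.34 over the flasks, and in Lung at 12294, 11438 and 11755.

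Because Kdr and Flt1 are the members that differed most between the lines in culture together with Vwf, the sequence before their transcription starts is shown here, 240 bases each, 5′ to 3′ on the gene's strand, from RefSeq windows on the older build GRCm38.p6. Capitals mark matches to AGGAAG or CGGAAG (cores of ETS factor sites), GGGCGG (GC box) or ACGTG (core of the hypoxia response element), on either strand. The Kdr stretch covers chr5:75978466-75978705 and the Flt1 stretch chr5:147726022-147726261, both on the minus strand and both ending 10 bases before the start.
Kdr: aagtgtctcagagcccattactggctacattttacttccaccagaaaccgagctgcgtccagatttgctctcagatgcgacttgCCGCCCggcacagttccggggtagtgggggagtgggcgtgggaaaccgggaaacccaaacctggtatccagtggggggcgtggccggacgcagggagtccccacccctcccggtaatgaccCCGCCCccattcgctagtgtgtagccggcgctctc
Flt1: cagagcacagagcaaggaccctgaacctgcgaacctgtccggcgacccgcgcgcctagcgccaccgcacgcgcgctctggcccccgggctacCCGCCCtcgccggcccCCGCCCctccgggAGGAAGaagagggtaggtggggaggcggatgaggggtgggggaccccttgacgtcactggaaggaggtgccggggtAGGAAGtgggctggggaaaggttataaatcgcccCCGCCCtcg
The full windows of 300 bases (250 before and 50 after the start) hold 2 GC boxes and no ETS core in Kdr, and 3 GC boxes and 2 AGGAAG cores in Flt1. Neither holds ACGTG. Among 32851 such windows in the mouse genome, 35.7% hold GGGCGG, 35.4% AGGAAG, 16.9% CGGAAG and 19.6% ACGTG. Windows were found for 6 of the 10 genes. The others were Tek with no match, Eng with 2 AGGAAG cores, Vegfc with 2 GC boxes and Vegfa with 2 GC boxes at its first start, and 1 GC box and 1 ACGTG at its second. These matches are descriptions of letters and not binding sites.

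Tek (chromosome 4, 94627291 to 94763224), the receptor for the angiopoietins, rose in both lines and stayed far below Lung. It was at 53.5, 68.4 and 49.2 normalized counts in 46LCNEC_cell, 329.8, 161 and 314 in the 46LCNEC tumors, 33.3, 27.7 and 44.3 in 57SCLC_cell and 132, 122 and 93.1 in the 57SCLC tumors. The rise was 2.16 ± 0.32 in 46LCNEC and 1.70 ± 0.25 in 57SCLC. Lung, at 10914, 9708 and 10903, was above every tumor, with log2 fold changes against Lung of -5.35 ± 0.28 in 46LCNEC_allo and -6.51 ± 0.14 in 57SCLC_allo.

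Vwf (chromosome 6, 125523737 to 125663642), von Willebrand factor, the clotting protein stored by endothelial cells and platelets, did not follow the other endothelial markers. In cultured 57SCLC cells it was at 7072, 7389 and 7724 normalized counts, and in the 57SCLC tumors at 6628, 8295 and 7134. The ranges of cells and tumors overlapped, with a difference of -0.01 ± 0.10 (adjusted p = 0.929), the sign of which turned when flask C (0.02), tumor 275 (0.06) or tumor 317 (0.005) was left out. Lung was at 14955, 8101 and 8172, and the differences from it in 57SCLC_cell (-0.43 ± 0.23, adjusted p = 0.116) and 57SCLC_allo (-0.45 ± 0.23, adjusted p = 0.120) were not called. In 46LCNEC_cell, Vwf was at 29.1, 35.3 and 26.9, which put 57SCLC_cell 7.89 ± 0.12 above it (adjusted p = 3.49e-09), and the 57SCLC tumors were 6.03 ± 0.67 above the 46LCNEC tumors. The same flasks held at most 3 reads of Cdh5 and at most 1 read of Kdr per sample. Platelet markers were also low there, with Pf4 and Ppbp at 0 in the 3 flasks and Itga2b between 44.0 and 55.8. The genes on either side of Vwf were examined after this was seen, and Ano2 was at most at 26.1 in any sample while Cd9 lay between 1187 and 5013. No exon base of Vwf lies in the span of another annotated gene. In the 46LCNEC tumors Vwf was at 238, 33.7 and 169, with tumor 319 inside the range of the dishes. The difference from the cells, 1.84 ± 0.68, was not called (adjusted p = 0.0541), and without tumor 319 it was called at 2.69 (adjusted p = 0.000427).

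**Figure D2:**
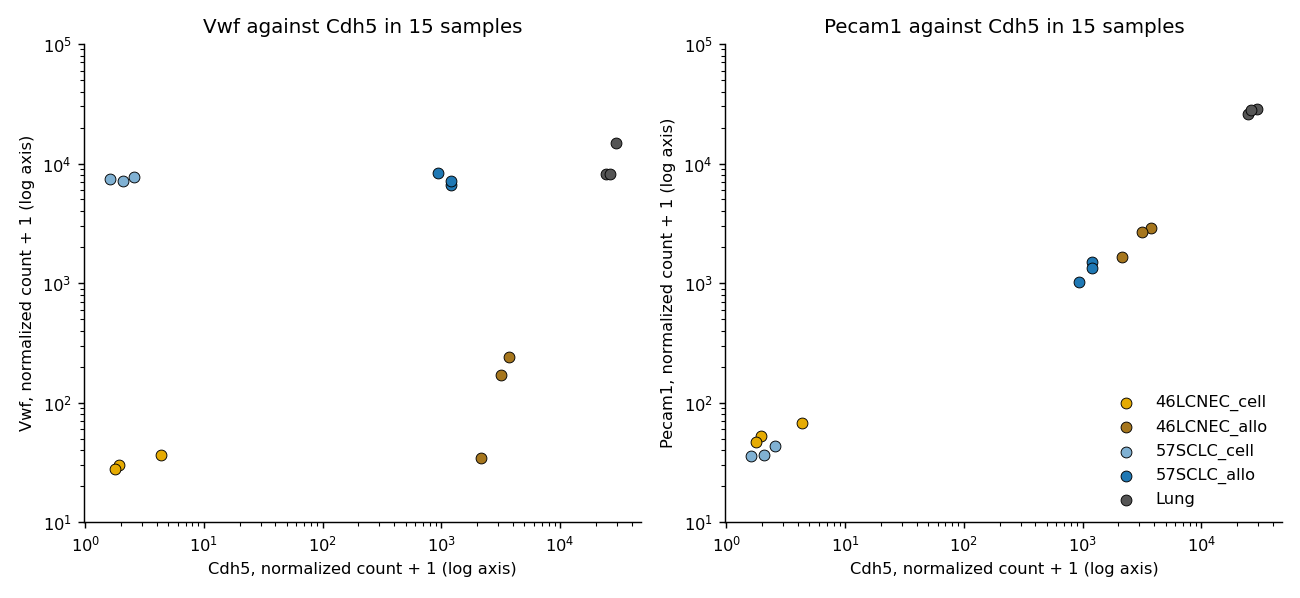
Vwf (left) and Pecam1 (right) against Cdh5 in the 15 samples, all as normalized count + 1 on log axes, with 1 point per sample colored by group. Pecam1 increases with Cdh5 over the 5 groups, while the 57SCLC samples hold Vwf between 6628 and 8295 at Cdh5 values from 0.603 to 1204.

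The ligand Vegfa (chromosome 17, 46327919 to 46343309) was high in every sample. Lung held 57568, 53189 and 57383 normalized counts, 46LCNEC_cell 13489, 11622 and 11529, and 57SCLC_cell 2940.2, 2884 and 6629, with flask C above the other flasks. The 57SCLC tumors were close together, at 12874, 14281 and 14811, and the 46LCNEC tumors far apart, at 12719, 31625 and 8976, with tumor 319 highest. From cells to allografts Vegfa rose by 1.87 ± 0.29 in 57SCLC (adjusted p = 0.00134), a call that was lost by a small margin without tumor 316 (adjusted p = 0.0109) or tumor 317 (0.0109). In 46LCNEC it differed by 0.33 ± 0.42 (adjusted p = 0.528) with overlapping groups, and without tumor 319 the sign turned (-0.19). 57SCLC_cell was 1.67 ± 0.30 below 46LCNEC_cell on the log2 scale, whereas the allografts of the lines overlapped. Their difference was -0.14 ± 0.43 (adjusted p = 0.809), and it became 0.39 without tumor 319 and 0.13 with scaling by library size. Against Lung, Vegfa was called lower in all 4 tumor and cell groups, although for 46LCNEC_allo the call (-1.87 ± 0.44, adjusted p = 0.00986) was lost without tumor 312 (adjusted p = 0.0351), tumor 321 (0.0165), CT3 (0.0382), CT4 (0.0342) or CT5 (0.0362).

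Vegfc (chromosome 8, 54530257 to 54640131), the lymphatic growth factor, was the member in which the 46LCNEC tumors reached the level of Lung. It was at 885, 998 and 961 normalized counts in the 46LCNEC tumors, above every Lung sample (724, 869.7 and 598), but the difference from Lung of 0.39 ± 0.16 was not called (adjusted p = 0.0669). In 46LCNEC_cell it was at 90.1, 93.8 and 108, in 57SCLC_cell at 32.2, 39.2 and 44.8, and in the 57SCLC tumors at 119.7, 75 and 108. Vegfc thus rose by 3.28 ± 0.15 in 46LCNEC and by 1.34 ± 0.25 in 57SCLC. The second call was lost without flask A (adjusted p = 0.0175), flask B (0.0141), tumor 275 (0.0156) or tumor 317 (0.0216). Between the allografts Vegfc was 3.25 ± 0.21 lower in 57SCLC_allo (adjusted p = 4.28e-05).

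Angpt2 (chromosome 8, 18739202 to 18791603), a ligand of Tek stored by endothelial cells and released at sprouting vessels, was listed at 0 in all 15 samples. No level or fold change can be given for it. All of its exon bases lie inside the span of Mcph1, on the opposite strand, and 70.7% of them inside exons of Mcph1. Mcph1 was itself counted in every sample, between 246 and 1176 normalized counts. Among 1523 protein-coding genes whose exons lie wholly inside the span of another gene, 67.2% were at 0 in all samples, against 19.9% of 11862 genes with no such overlap and 3.58% of 8242 genes with overlap in part. The endothelial genes Esm1 and Ecscr, both wholly inside another gene's span, were at 0 in all samples too, Lung included. Cd34 and Aplnr, also wholly inside another gene's span, had reads. Foxf1 and Fendrr, genes of lung capillary endothelium, were at 0 in all samples with only 3.97% and 0% of their exon bases in such a span. The strand setting and the treatment of overlapping genes in the counting step were not given in the sources used here, and their part in these zeros was not tested.

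**Figure D3:**
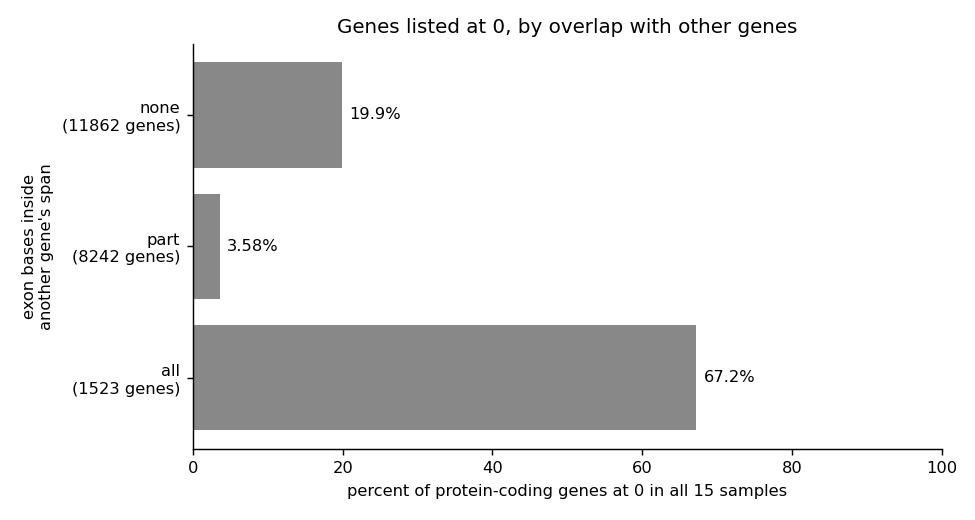
Percent of protein-coding genes at 0 in all 15 samples (axis from 0 to 100), for genes with none, part or all of their exon bases inside the span of another annotated gene. Angpt2 belongs to the bar labelled all, where 67.2% of 1523 genes were at 0.

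Across the 4 comparisons with Lung, which share the same 3 Lung samples, none of the 10 genes was called higher than Lung. In 46LCNEC_allo 8 of the 9 genes tested were called lower than Lung, where 22.1% of all genes tested were called lower and 13.4% higher. For 57SCLC_allo the count was also 8 of 9, with 26.9% of all genes lower and 18.9% higher. In 46LCNEC_cell 9 of 9 were lower (35.0% of all genes lower, 20.6% higher), and in 57SCLC_cell 8 of 9 (32.7% lower, 21.1% higher). The exceptions were Vegfc in 46LCNEC_allo and Vwf in both groups of 57SCLC. The median log2 fold change of the tested members was -3.57 in 46LCNEC_allo and -4.44 in 57SCLC_allo, beside -0.14 and -0.09 over all genes tested. In bulk tissue, fewer endothelial cells and less RNA per cell cannot be told apart.

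From cells to allografts, 6 of 9 genes rose in 46LCNEC (Pecam1, Cdh5, Kdr, Tek, Eng and Vegfc), and 8 of 9 rose in 57SCLC (all tested except Vwf). Of all genes tested, 14.4% rose and 8.45% fell in 46LCNEC, and 14.4% rose and 2.29% fell in 57SCLC. The median over the members was 2.16 and 5.04 on the log2 scale, beside -0.00 in 46LCNEC and 0.00 in 57SCLC over all genes. Between the allografts, 57SCLC_allo had higher Vwf and lower Cdh5 (-1.41 ± 0.22), Kdr (-1.26 ± 0.22) and Vegfc, where 16.1% of all genes were called higher and 14.2% lower. The call for Kdr was lost without tumor 312 (adjusted p = 0.0103), tumor 275 (0.0110) or tumor 316 (0.0107). Pecam1 (-0.87 ± 0.25), Eng (-0.89 ± 0.32), Tek (-1.15 ± 0.33) and Flt1 (-1.24 ± 0.36) were not called (adjusted p of limma between 0.0231 and 0.0506). Pecam1 (-1.12) and Tek (-1.49) were called without tumor 319, and Flt1 (-1.55) without tumor 321. With scaling by library size the median of all genes in this comparison moved by 0.27 toward 57SCLC_allo, and the share of calls that were higher went from 53.1% to 64.7%. Between the cultures Vwf was higher and Vegfa, Eng, Flt1, Vegfc and Kdr were lower in 57SCLC_cell, 5 of 8 tested, with 23.9% of all genes called higher and 22.2% lower, and Cdh5 was too low to be tested.

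The change from cells to allografts was compared between the lines with an interaction term. It was larger in 57SCLC for Flt1 (6.28 ± 0.46), Kdr (6.71 ± 0.35) and Eng (2.24 ± 0.44), and smaller for Vegfc (-1.93 ± 0.29), beside 10.8% of all genes called with a larger and 6.78% with a smaller change, and a median of 0.10 over all genes. The estimate for Kdr rests on the single read in the 57SCLC flasks and ranged from 4.57 (pseudocount of 5) to 9.34 (pseudocount of 0.1) under the alternatives tried, called in each. For these receptors and Eng the mean levels were higher in 46LCNEC than in 57SCLC, both in culture and in the allografts. For Cdh5 (-1.15 ± 0.51, adjusted p = 0.0939), Pecam1 (-0.36 ± 0.33) and Tek (-0.46 ± 0.43) a difference between the lines was not called.

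To set the level of endothelial genes in the tumors beside normal lung, each gene was expressed as a percent of its Lung mean. Over the 7 endothelial markers and 17 further endothelial genes with reads, the median was 10.4% in 46LCNEC_allo and 4.16% in 57SCLC_allo. These percents include any expression by the tumor cells themselves. In culture the median was 0.166% in 46LCNEC_cell and 0.0681% in 57SCLC_cell. The highest there were Flt1 in 46LCNEC_cell (18.7%) and Vwf in 57SCLC_cell (71.0%). Cdh5 was at 11.2% and 4.15%, Pecam1 at 8.67% and 4.68%, Kdr at 7.96% and 3.30%, and Eng at 7.38% and 3.90%. Tek, at 2.55% and 1.10%, lay far below them, and Flt1, at 31.5% and 13.4%, above. Clec14a, an endothelial C-type lectin, was at 1.87% and 0.831%, and the sialomucin Cd34, which fibroblasts also express, at 99.3% and 11.33%. All exon bases of Cd34 lie inside the span of another annotated gene, and the effect on its counts was not tested. The lowest of the 24 genes was Vwf (1.41%) in 46LCNEC_allo and Clec14a in 57SCLC_allo, and the highest was Cd34 in 46LCNEC_allo and Vwf (70.6%) in 57SCLC_allo.

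**Figure D4:**
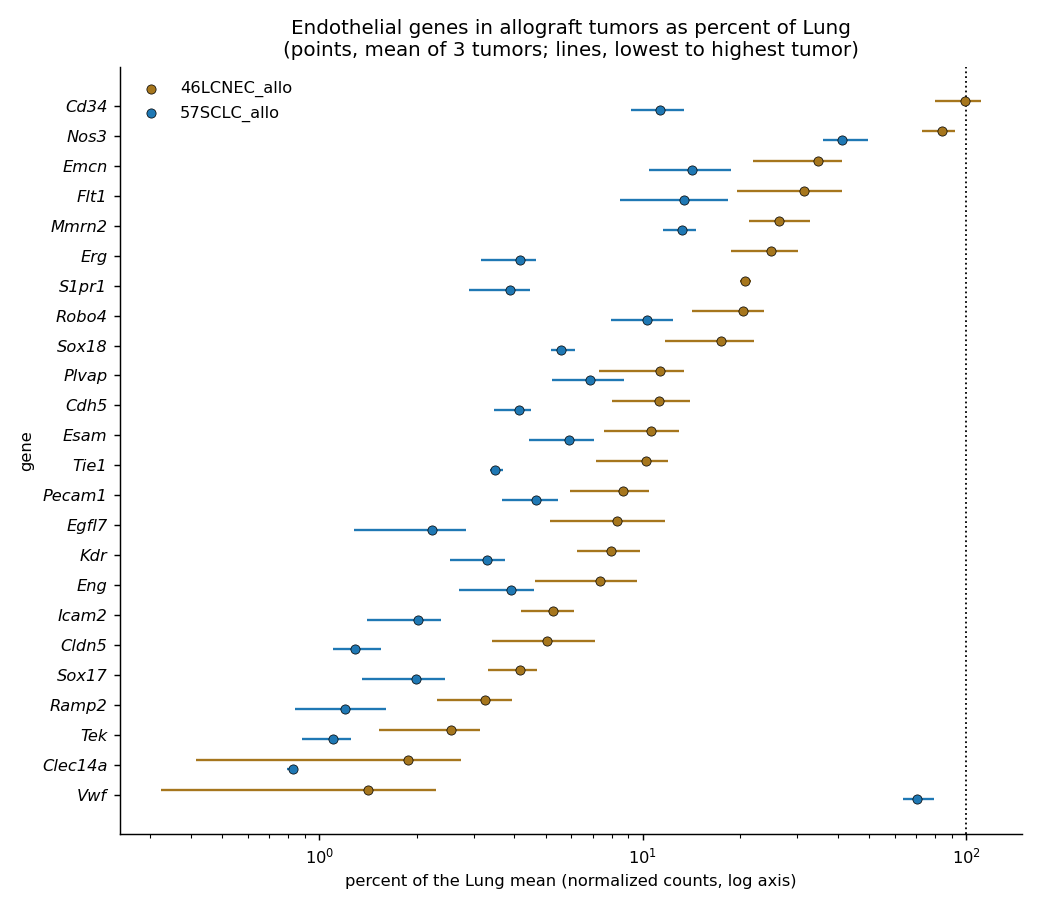
Level of 24 endothelial genes in the allograft tumors as percent of the Lung mean (log axis), with points for the mean of 3 tumors and lines from the lowest to the highest tumor. The mean of the 46LCNEC tumors lies above that of the 57SCLC tumors for every gene but Vwf, which is at 70.6% in 57SCLC_allo and 1.41% in 46LCNEC_allo, and the ranges of the tumors overlap for Clec14a and Plvap, where tumor 319 is lowest in 46LCNEC_allo.

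Within a tumor, Tek and Flt1 stood in other proportions to Cdh5 than in normal lung. The ratio of Tek to Cdh5 was 0.370, 0.396 and 0.416 in Lung, 0.0883, 0.0751 and 0.0996 in the 46LCNEC tumors and 0.109, 0.131 and 0.0777 in the 57SCLC tumors. No tumor reached the lowest Lung value, and the mean log2 ratio differed from Lung by -2.17 in 46LCNEC_allo and by -1.92 in 57SCLC_allo. Flt1 to Cdh5 went the other way, from 0.416, 0.466 and 0.449 in Lung to 1.06, 2.28 and 0.734 in the 46LCNEC tumors and 1.80, 1.08 and 1.32 in the 57SCLC tumors. The 46LCNEC cells express Flt1 themselves, so for that line the ratio mixes tumor cells and vessels in proportions that were not tested, while in 57SCLC_cell Flt1 was at most at 14.5. The same limit holds in 46LCNEC for Kdr (mean of 290 in culture and 1117 in the tumors), Tek (57.0 and 268) and Eng (160 and 1481). In 57SCLC it holds for Tek (35.1 and 115). Kdr to Cdh5 was lower in both allografts (0.347 to 0.411 and 0.383 to 0.438, against 0.476 to 0.576 in Lung). Pecam1 to Cdh5 lay below Lung in 46LCNEC_allo and above it in 57SCLC_allo, and Eng to Cdh5 overlapped with Lung only in 57SCLC_allo. In an exact permutation test, 9 of the 10 ratio comparisons gave a two-sided p of 0.1, and Eng in 57SCLC_allo gave 0.6. A p of 0.1 is the smallest that 3 against 3 samples can give, so this test cannot decide whether a ratio differed. How often the ratios of other genes to Cdh5 lay apart from Lung was not counted.

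Of the 18 further endothelial genes, 17 were tested and 1, Ecscr, was at 0. From cells to allografts 17 of 17 rose in 46LCNEC and 16 of 17 in 57SCLC, with a median log2 change of 7.48 and 5.60 (7.64 and 6.33 with genes that had no read in culture set to their lower bound). Of all genes tested, 14.4% rose in each line. Tie1, an orphan receptor related to Tek, had no read in any culture, which made the 46LCNEC tumors at least 877-fold and the 57SCLC tumors at least 497-fold higher. The roundabout receptor Robo4 (at least 496-fold and 428-fold) and the transcription factor Sox17 (at least 274-fold and 219-fold) likewise had no read in culture. The tight junction gene Cldn5, with 2 reads in 46LCNEC_cell and 1 in 57SCLC_cell, was 2057-fold (569 to 16993) and 1675-fold (300 to 66281) higher in the tumors. Against Lung, 15 and 17 of the 17 were lower in 46LCNEC_allo and 57SCLC_allo, beside 22.1% and 26.9% of all genes tested. Between the allografts 9 of 17 were lower in 57SCLC_allo and none was higher, with a median of -1.39, beside 14.2% of all genes lower and 16.1% higher. Among the lower ones were Cd34 (-3.11 ± 0.24), the ETS factor Erg (-2.57 ± 0.24) and the sphingosine receptor S1pr1 (-2.43 ± 0.18). S1pr1 was also expressed by 46LCNEC_cell (268 to 318 normalized counts, against 1.206 to 10.9 in 57SCLC_cell).

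The other genes of the VEGF, angiopoietin and apelin pathway, 14 in number and all tested, divided by role. Among the ligands, Pgf, placental growth factor, which binds Flt1, was the one called higher than Lung in every cell and tumor group, at 143 to 189 normalized counts in Lung, 3517 to 3641 in 46LCNEC_cell, 1059.8 to 3679.7 in the 46LCNEC tumors, 1778 to 2169 in 57SCLC_cell and 1188 to 1692 in the 57SCLC tumors. Its highest tumor was 319. Vegfb, a further Flt1 ligand, was even, between 683 and 1346 in all samples, and was called in no comparison. Vegfd, a lymphatic growth factor like Vegfc, rose from cells to allografts in 46LCNEC (1.86 ± 0.12) and fell in 57SCLC (-1.54 ± 0.26), with an interaction of -3.41 ± 0.31. Angpt1, the activating ligand of Tek, was at 1533 to 1764 in 46LCNEC_cell and 3203 to 5421 in its tumors, where it rose by 1.39 ± 0.19, but at 44.7 to 79.4 in all 57SCLC samples, 6.22 ± 0.28 lower in the 57SCLC than in the 46LCNEC tumors. Angpt4 stayed at or below 306 in every sample. Apln, apelin, a peptide made by sprouting endothelium, was made in culture too, at 1556 to 1849 in 46LCNEC_cell and 296 to 457 in 57SCLC_cell, and rose in the 57SCLC tumors (2.13 ± 0.19). The repulsive guidance genes Sema3a and Sema3f were lower than Lung in all 4 groups.

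**Figure D5:**
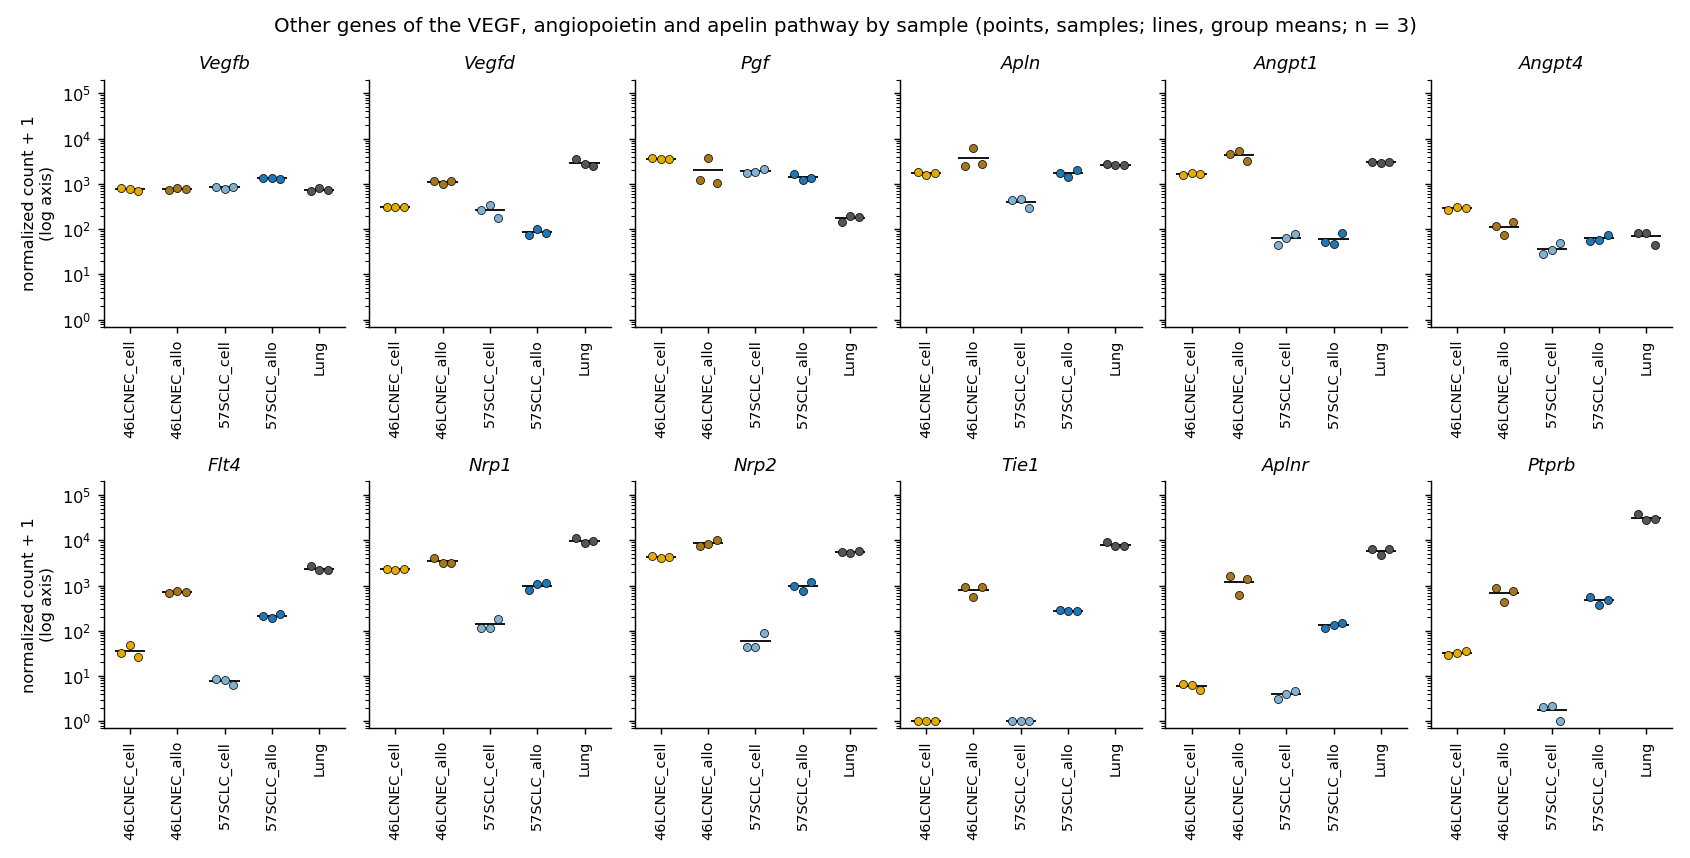
Normalized count + 1 (log axis) of 12 other genes of the VEGF, angiopoietin and apelin pathway in the 15 samples, with points for samples and lines for group means (n = 3). The receptors Tie1, Aplnr, Flt4 and Ptprb go from near 0 or low levels in culture to higher levels in the allografts, while the ligands Pgf, Vegfb and Apln are present in both cultures.

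Among the receptors and their partners, Tie1, the apelin receptor Aplnr, the VEGF-C receptor Flt4 and the phosphatase Ptprb, which acts on Tek, rose from cells to allografts in both lines. The rise was 4.38 ± 0.25 and 4.79 ± 0.24 for Flt4 and 7.55 ± 0.39 and 5.09 ± 0.27 for Aplnr. All exon bases of Aplnr lie inside the span of another annotated gene, and the effect on its counts was not tested. For Ptprb it was 4.35 ± 0.29 in 46LCNEC, and in 57SCLC the tumors were 623-fold above the flasks (243 to 2292), in which 4 reads were counted. All 4 were lower than Lung in both allografts. The neuropilins, co-receptors shared by VEGF and semaphorins, differed between the lines. Nrp1 was at 2224 to 2353 in 46LCNEC_cell and at 113 to 182 in 57SCLC_cell, and Nrp2 at 4131 to 4612 and at 44.0 to 87.5, and both rose in 57SCLC (2.87 ± 0.22 and 4.09 ± 0.29), while their changes in 46LCNEC (0.58 ± 0.13 and 0.99 ± 0.13) were under the fold threshold, with interactions of 2.29 ± 0.28 and 3.10 ± 0.34. Over the list, 7 genes rose and 1 fell in 46LCNEC, 8 rose and 1 fell in 57SCLC, and 9 were lower with none higher in 57SCLC_allo than in 46LCNEC_allo. The median change was 1.207, 1.60 and -1.64, beside -0.00, 0.00 and 0.01 over all genes tested. Of all genes, 14.4% rose in each line, and 14.2% were lower in 57SCLC_allo than in 46LCNEC_allo.

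The capillary endothelium of lung was followed with 10 genes, of which 8 had reads. All 8 were lower than Lung in both allografts, with a median of -4.38 in 46LCNEC_allo and -4.33 in 57SCLC_allo. Of all genes tested, 22.1% and 26.9% were lower. Car4, a carbonic anhydrase of lung capillaries, was at 6218 to 6583 normalized counts in Lung, 22.6 to 88.6 in the 57SCLC tumors and at 5 reads in all over the 46LCNEC tumors. The transcription factor Tbx2 was at 0.765% and 1.03% of Lung in 46LCNEC_allo and 57SCLC_allo, and Cd93, a C-type lectin of endothelium, at 23.8% and 9.61%. Tbx2 is also expressed by mesenchymal cells of lung.

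Genes of sprouting (tip cell) endothelium were mixed in direction. Of 9 tested, 5 rose from cells to allografts in 46LCNEC and 8 in 57SCLC, beside 14.4% of all genes in each line, and none fell. Against Lung, 3 were higher and 4 lower in 46LCNEC_allo (13.4% and 22.1% of all genes). In 57SCLC_allo 1 was higher and 5 were lower (18.9% and 26.9% of all genes). The medians in 46LCNEC_allo and 57SCLC_allo were -1.207 and -1.16. Plvap, the protein of endothelial diaphragms, was lower in both allografts (-3.19 ± 0.25 and -3.89 ± 0.18), as was the growth factor gene Pdgfb (-2.35 ± 0.18 and -3.27 ± 0.13). Of the exon bases of Plvap, 59.7% lie inside the span of another annotated gene, and the effect on its counts was not tested. Unc5b, a netrin receptor, was higher in both (2.71 ± 0.27 and 1.33 ± 0.12), and it was also at 4019 to 11917 in the cultures. Between the allografts 1 gene was higher and 4 were lower in 57SCLC_allo (median -1.02), beside 16.1% and 14.2% of all genes. The lower ones were the laminin Lama4 (-3.33 ± 0.22), Rgcc (-3.13 ± 0.39), the basement membrane gene Nid2 (-2.46 ± 0.28) and Unc5b (-1.38 ± 0.27). For Lama4, Rgcc and Nid2 the interaction was positive (3.82 ± 0.53, 2.19 ± 0.56 and 2.89 ± 0.39), so 57SCLC_cell lay still further below 46LCNEC_cell in culture. For Unc5b it was not called (-0.06 ± 0.31). The share of tumor cells in these levels was not tested. The higher one was Dll4, the Notch ligand of tip cells, at 836, 683 and 760 in the 46LCNEC tumors and at 2044, 1557 and 1706 in the 57SCLC tumors, a difference of 1.214 ± 0.14 that was called. The 57SCLC flasks held Dll4 at 114 to 195, against 6.57 to 13.2 in the 46LCNEC dishes.

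Of 6 lymphatic genes with reads, 6 were lower than Lung in 46LCNEC_allo (22.1% of all genes) and 5 in 57SCLC_allo (26.9%). The exception was Prox1, the transcription factor that sets lymphatic identity and is also expressed in neuroendocrine cells, at 8833 to 11086 in 57SCLC_cell, 6353 to 8506 in the 57SCLC tumors and 158 to 212 in Lung. Lyve1, a hyaluronan receptor of lymphatic vessels and some macrophages, was at 37.6 to 184 in the tumors and at 3648 to 4916 in Lung.

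Genes of pericytes and vascular smooth muscle, the cells that wrap vessels, stood nearer to Lung than the endothelial genes did. Over the 12 genes the median level was 76.7% of Lung in 46LCNEC_allo and 42.7% in 57SCLC_allo. In culture the median was 3.14% in 46LCNEC_cell, with the highest gene at 121%, and 1.49% in 57SCLC_cell, with the highest at 22.2%. The tumor levels can therefore include expression by the tumor cells, in a share that was not tested. Rgs5, a pericyte regulator of G protein signaling, was above Lung in both allografts (1.62 ± 0.38 and 2.66 ± 0.20), at 678 to 1844 and 1971 to 2909.6 normalized counts against 323 to 505, and it had no read in 57SCLC_cell. Pdgfrb, the pericyte receptor for PDGF, was above Lung in 46LCNEC_allo (1.55 ± 0.22) but also at 6129 to 6718 in 46LCNEC_cell. The smooth muscle genes Myh11 and Cnn1 were lower than Lung in both allografts, at 1.10% to 14.6% of its level.

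Hypoxia response genes are given beside Vegfa, which belongs to their targets. In 46LCNEC_allo, tumor 319, the tumor with the highest Vegfa, was also highest in the carbonic anhydrase Car9 (659.6, 3033 and 423 in tumors 312, 319 and 321), the prolyl hydroxylase Egln3 (4723, 23170.5 and 3860) and Ndrg1 (1118, 5873 and 834). In 57SCLC_cell, flask C, the highest in Vegfa, held Hk2 at 317 against 28.9 and 18.1 in flasks A and B. Of 11 genes tested, 3 rose from cells to allografts in 46LCNEC and 10 in 57SCLC, with a median of 1.32 and 2.65. Over all genes, 14.4% rose in each line. Lung, which had the highest Vegfa, was lower than each allograft in 8 of the 11, and none of the 11 was called higher in Lung. Over all genes, Lung was lower than 46LCNEC_allo in 13.4% and lower than 57SCLC_allo in 18.9%. The part of hypoxia in the levels of Vegfa was not tested.

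Among 9 angiogenesis inhibitors, 2 (Timp3 and Cxcl10) were at 0 in all samples. Thbs2, a thrombospondin, was higher than Lung in both allografts (6.90 ± 0.23 and 5.03 ± 0.26), as was Col18a1, the collagen from which endostatin is cleaved (3.47 ± 0.26 and 1.90 ± 0.24). Thbs1 was at 41743 to 51657 in 46LCNEC_cell and fell in its tumors (-2.43 ± 0.41), and it rose in 57SCLC (4.36 ± 0.17). Of the 6 and 7 genes tested, 3 rose and 1 fell in 46LCNEC, and 5 rose and none fell in 57SCLC. Over all genes, 14.4% rose in each line, and 8.45% fell in 46LCNEC and 2.29% in 57SCLC.

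Most tested markers of fibroblasts, leukocytes and red blood cells rose from cells to allografts, as the endothelial genes did. For fibroblasts 8 of 8 markers rose in both lines, beside 14.4% of all genes in each. Against Lung their median was 3.32 in 46LCNEC_allo and 0.34 in 57SCLC_allo, unlike the endothelial genes, which were lower. The summed level of the fibroblast markers was 438391 to 894549 normalized counts in the 46LCNEC tumors, 41734 to 64029 in the 57SCLC tumors and 26154 to 31777 in Lung. 46LCNEC_cell itself held a sum of 78881 to 89813, and 57SCLC_cell one of at most 42.7. Leukocyte markers rose in 5 of 6 and 6 of 7 genes tested, with sums of 22157 to 48777 in the 46LCNEC tumors, 9008 to 14896 in the 57SCLC tumors and 89791 to 118049 in Lung. Hemoglobin and other red blood cell genes summed to 368 to 846 and 238 to 2277 in the tumors, at most 1.88 in culture, and 14355 to 37079 in Lung. Platelet markers summed to 820 to 1053 in the 46LCNEC tumors, 254 to 516 in the 57SCLC tumors and 3205 to 4341 in Lung, and alveolar markers to at most 3185 in any tumor against at least 250359 in Lung. The share of these cells in the differences of Pecam1 and Vwf was not tested.

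The genes whose pattern over the 15 samples was most like that of a member were listed among 15073 genes with a mean of at least 50 normalized counts. For Cdh5 they were Ldb2, Tie1, Gpihbp1, Robo4 and Gimap4, with Pearson's r of log2 values between 0.997 and 0.998. For Kdr they were Plxdc2, Mgll, Hoxa7, Aqp1 and Ly6c1 (0.990 to 0.995), for Vegfa Arhgef10, Per2, Cbr2, Fnbp1l and Pef1 (0.939 to 0.962), and for Vegfc Nrep, Wscd2, Ly6e, 4933412E12Rik and Cd34 (0.980 to 0.994). The 15 points fall into 5 groups and share library and scaling, so these values describe the order of groups.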

How the data were processed

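The authors mapped paired-end reads with Rbowtie2 (GRCm39), summarized them over GENCODE vM27 genes by featureCounts, and deposited a matrix of signal values: counts divided by the DESeq2 size factor of each sample. The strand setting is not given in the sources used here. Every non-zero value was a whole multiple (within 0.01 read) of the smallest value of its sample, and the reads were recovered by this division.

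Each of 8 pairs of groups was compared with limma 3.58.1 in R 4.3.3, with a mean-variance trend, on log2(normalized count + 1) of its 6 samples, keeping genes that reached 10 normalized counts in 3 or more samples. p-values were adjusted by Benjamini-Hochberg over all genes tested. The interaction of line and growth setting was fitted over 12 samples. Alternatives were DESeq2 1.42.0 and edgeR 4.0.16 on the recovered reads, scaling by library size or upper quartile, pseudocounts of 0.1 and 5, no filter, an adjusted p of 0.05, all 15 samples in 1 model, each sample left out in turn (at least 10 in at least 2 samples), and the culture letters as a block. The procedures were run on simulated data to check the code. The simulation gave all genes the same fixed spread, and only large changes in well-counted genes. For 57SCLC_allo against 46LCNEC_allo (17662 genes), limma, edgeR and DESeq2 recovered 100% of 200 changed genes with 0 other calls. The interaction (18004 genes) was recovered at 100% with 1 other call. Recovery of smaller changes, or at the spread between the real tumors, was not tested.

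Reads at or under a floor of 3 per sample were taken as not detected. Ratios against groups with few reads carry exact Clopper-Pearson intervals at 95%, and bounds against groups with none use 3 reads over the group. Intervals and floors cover counting error only. Gene positions and overlaps came from GENCODE release 39 on GRCm39 (54749 of 55359 identifiers, 98.9%), and sequences before starts from RefSeq on GRCm38.p6. Python 3.11.15, scipy 1.17.1 and matplotlib 3.10.9 were used for the rest.

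All 10 members are named, and all genes of the pathway list may be. From each other list the genes with the largest called change (at most 3 per comparison and direction) or with at most 3 reads in every sample of a group may be named, as may the 5 genes most like Cdh5, Kdr, Vegfa and Vegfc (Angpt2, at 0, has none). Markers of the tumor type, the deleted genes, the neighbors of Vwf, Mcph1, and the genes named for single samples or as ends of a range were chosen after values were seen. The members and the lists were chosen with earlier results of these data known. Some items of the genotype and the marker genes are not reported here.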

Additional observations from a re-analysis of the deposited data

Results flagged for a closer look

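The change from cells to allografts differed between the lines, by the interaction term of limma over 12 samples, for 4 of the 9 members tested. It was larger in 57SCLC by 6.71 on the log2 scale for Kdr (adjusted p = 7.86e-08; 4.57 to 9.34 under the alternatives, with a single read in the 57SCLC flasks), by 6.28 for Flt1 (1.16e-06) and by 2.24 for Eng (0.00192), and smaller by 1.93, that is -1.93, for Vegfc (0.000364). Of all genes tested, 10.8% were called with a larger and 6.78% with a smaller change in 57SCLC. For Kdr, Flt1 and Eng the lines differed in culture, where 46LCNEC_cell was higher. For Vegfc the lines differed more in the allografts (-3.25) than in culture (-1.31). Groups of 3 samples were too small for a test of single samples against their replicates.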

How the results depend on the processing

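The counts of called members were the same or within 1.5 times under all alternatives, except in 2 cases. In 57SCLC_allo against 46LCNEC_allo, 5 members in place of 3 were lower with DESeq2, at an adjusted p of 0.05 and in the model of all 15 samples, and between 2 and 5 with 1 sample left out. The interaction had 2 members in place of 1 with a smaller change in 57SCLC with DESeq2 (Vwf, -2.31), and between 1 and 2 with 1 sample left out (Vwf, -2.71 without tumor 319). Of the single members' values, 6 changed sign, none of them called: Vegfa from cells to allografts in 46LCNEC (-0.19 without tumor 319, the lowest of -0.19 to 0.72 with 1 sample left out), Vegfa between the allografts (0.13 with scaling by library size, and 0.39 without tumor 319, the highest of -0.52 to 0.39), and Vwf from cells to allografts in 57SCLC (0.02 without flask C, 0.06 without tumor 275, 0.005 without tumor 317, in a range of -0.10 to 0.058). For Vegfa in 46LCNEC_allo against Lung, the call was also lost with edgeR (adjusted p = 0.0247) and a pseudocount of 0.1 (0.0118), and Vegfa joined the interaction without tumor 319 (2.05). Vwf from cells to allografts in 46LCNEC was called with DESeq2 (2.28) and in the model of all 15 samples (1.84). The cause was not tested.

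The letters A, B and C of the cultures were tried as a block in 57SCLC_cell against 46LCNEC_cell. Samples with the same letter did not deviate together (correlations 0.0916, -0.0837 and -0.00619), so they share only a letter, and with the replicate block 1 member was higher and 5 were lower, as without it.

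Counts of 1 to 6 reads limit Cdh5 and Kdr in culture to wide intervals, and tumor 275 had the fewest reads.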
